A study of Mus musculus with 4 samples.

Results

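Cells rich in cystatin M/E transcripts were taken from single-cell transcriptomes of mouse dorsal epidermis by a rule on counts, and 3185 of 34150 kept cells met it. Cells were kept where a barcode held 1200 counts or more, no more than 20% of them mitochondrial, and a kept cell was a member if its rounded counts held at least 10 of Cst6, none of Lhx2 or Krt75, and fewer than 3 of Slurp1 and Slurp2 together. These cells are called Cst6-high cells here. They came from 4 female C57BL/6N mice at postnatal day 19, all homozygous for floxed CerS4, of which 2 lacked the Cre transgene (CerS4fl/flK14Cre-, control) and 2 carried it (CerS4fl/flK14Cre+, CerS4epi-/-). K14Cre is driven by the keratin-14 promoter, which is active in basal keratinocytes, so that the deletion reached all epithelial compartments of the skin and not the Cst6-high cells alone. Each mouse gave 1 set of counts from BD Rhapsody, a whole-transcriptome assay that counts unique molecular identifiers (UMIs), and this set is called a library here. The mouse was the replicate (n = 2 per genotype). The libraries held 42619084 and 48497481 counts in control and 53106317 and 39231945 in CerS4epi-/- mice, of which 8480, 9086, 9017 and 7567 cells were kept. Control mice contributed 613 and 619 members, and CerS4epi-/- mice 981 and 972.

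The infundibulum is the funnel-shaped upper end of the hair follicle that opens at the skin surface. Its differentiated cells carry keratins 79 and 17 and move outward through the follicle opening, in parallel to the keratinocytes of the interfollicular epidermis, which make keratins 1 and 10 and end as cornified cells. Cst6 encodes cystatin M/E, a secreted inhibitor of the cysteine proteases cathepsin L, cathepsin V and legumain, and its balance with these enzymes is needed for normal cornification. The other genes that mark the label are Klk10 and Klk6, members of the kallikrein family of secreted serine proteases, Sprr1a, a small proline-rich precursor of the cornified envelope, Atp12a, the catalytic subunit of the nongastric H+/K+ ATPase, and Plet1, a surface protein of the upper hair follicle. CerS4 is a ceramide synthase that attaches long acyl chains to the sphingoid base.

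The 250 bases before the start of the Ensembl canonical transcript of each marker gene were read from the reference genome (GRCm39, Gencode vM39), because most markers rose in CerS4epi-/- mice and AP-1, a factor of stressed and differentiating keratinocytes, binds a short palindrome. The motif TGANTCA, which reads the same on both strands, was found in 2 of the 6 markers, and 6.17% of 21770 promoters of the same length hold it. Sprr1a lies on the minus strand and its window is chr3:92393209-92393458, and that of Plet1, on the plus strand, is chr9:50405567-50405816. The motif AGATAA, a form of the sequences bound by GATA factors, was searched on both strands and was found in 0 of the 6 windows, against 9.60% of all promoters. Other forms were not searched, so that the windows are not shown to lack GATA sites. The window of Cst6, on the minus strand at chr19:5399603-5399852, held neither motif. The sequences of the gene that defines the cells and of the markers with a match are shown 5′ to 3′ with the matches in capitals, which start 126 and 96 bases before the start of Sprr1a and 136 bases before that of Plet1, and a match describes the sequence only.
Cst6: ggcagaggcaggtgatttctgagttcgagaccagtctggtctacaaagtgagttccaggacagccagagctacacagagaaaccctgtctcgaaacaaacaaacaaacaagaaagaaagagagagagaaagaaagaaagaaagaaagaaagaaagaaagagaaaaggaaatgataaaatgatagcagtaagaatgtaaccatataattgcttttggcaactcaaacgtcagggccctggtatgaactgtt
Sprr1a: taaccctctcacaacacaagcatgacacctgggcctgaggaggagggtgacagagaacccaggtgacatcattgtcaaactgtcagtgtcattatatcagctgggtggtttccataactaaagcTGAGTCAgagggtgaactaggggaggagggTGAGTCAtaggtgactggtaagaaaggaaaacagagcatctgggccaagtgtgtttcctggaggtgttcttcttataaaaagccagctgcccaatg
Plet1: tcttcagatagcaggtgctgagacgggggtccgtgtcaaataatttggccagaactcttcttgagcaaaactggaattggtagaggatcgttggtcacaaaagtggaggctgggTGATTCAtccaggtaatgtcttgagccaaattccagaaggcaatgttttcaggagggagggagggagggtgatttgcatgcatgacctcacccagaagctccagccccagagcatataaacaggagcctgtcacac

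The label of these cells, differentiated infundibulum, held for some of them only. A cell with 3 or more counts of Krt79 was called Krt79-positive. The share of Cst6-high cells that were Krt79-positive was 56.9% and 40.9% in control and 76.4% and 78.3% in CerS4epi-/- mice, which is 48.9% ± 11.4 (SD, n = 2) against 77.3% ± 1.37 (SD, n = 2), with no overlap between the groups. After each cell was thinned to 1200 counts, 48.5% and 77.1% of the members had at least 1 count of Krt79. At least 20 counts of Krt1 and Krt10 together were present in 593 of 630 Krt79-negative members in control and 319 of 443 in CerS4epi-/- mice. The others numbered 37 in control and 124 in CerS4epi-/- mice, so that the mixture within the Krt79-negative members also differed between genotypes. In sums over cells, the Krt79-negative Cst6-high cells carried the genes of interfollicular differentiation. Keratin 10 stood in them at 26670.1 and 30264 in control and 28215 and 25616 in CerS4epi-/- mice (CPM, counts scaled to the same total in each sum), against 6633 and 8892 in control and 2271 and 2479 in CerS4epi-/- mice for the Krt79-positive ones. The loricrin gene Lor, a main component of the cornified envelope, stood at 14334 and 14134 in control and 10886 and 13646 in CerS4epi-/- mice in Krt79-negative members, and in the Krt79-positive ones at 1563 and 845 in control and 902 and 474 in CerS4epi-/- mice. Krt17 had the opposite order, with 15234 and 14152 in control and 14229.8 and 14133 in CerS4epi-/- mice for Krt79-positive members and 869 and 977 in control and 1390.2 and 2142 in CerS4epi-/- mice for the others.

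These kinds of Cst6-high cells also differed in depth and in how much Cst6 they held. Krt79-negative members had a median of 10676 to 14345 counts per cell in the 4 mice and just passed the limit, with a median of 14 to 17 Cst6 counts, or 0.107% to 0.159% of the counts of the cell. Krt79-positive members had a median of 2602 to 4035 counts per cell, with a median Cst6 share of 0.953% and 0.921% for the control mice, against 1.70% and 2.47% for the CerS4epi-/- mice. A limit in counts therefore admitted deep cells with a small Cst6 share beside shallow cells with a large one. The median depth of all members was 4719, 9621, 4653 and 4100 counts, so that control 2, the library with the fewest Krt79-positive members, stood apart from the other 3. Mitochondrial counts made up a median of 5.46% and 4.99% in control members and 8.59% and 7.94% in CerS4epi-/- members. Since the kinds of cells were mixed in different proportions in the genotypes, the main results are given for all Cst6-high cells and for the Krt79-positive ones, a division made after the members had been seen. Values stated for neither kind are those of all Cst6-high cells.

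**Figure D1:**
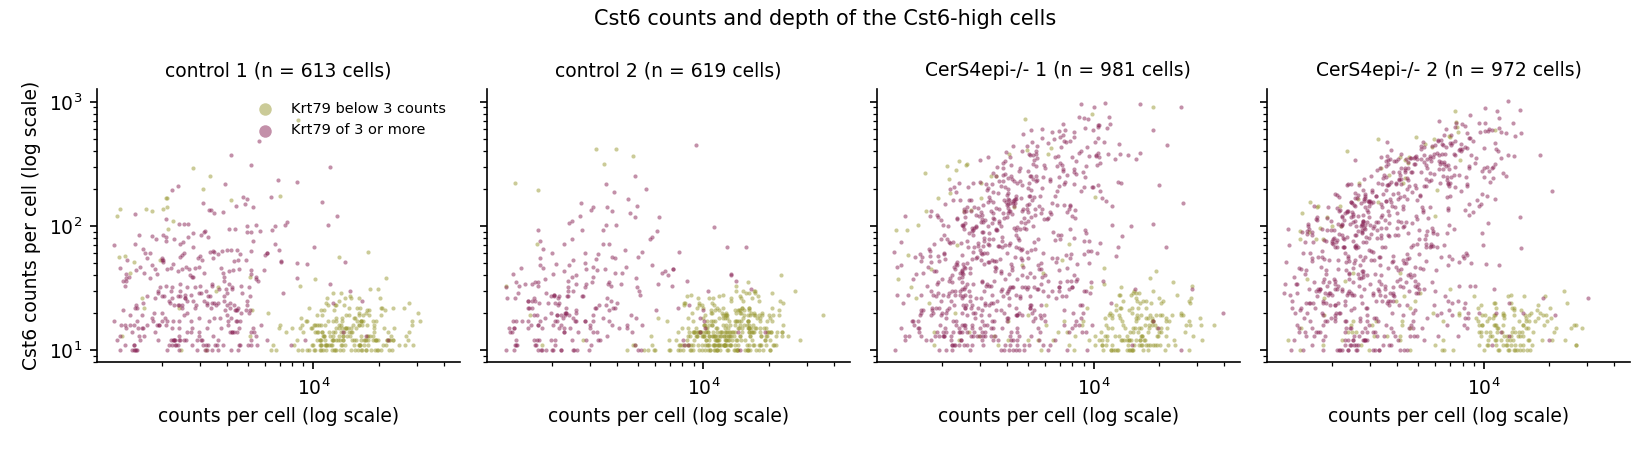
Cst6 counts against total counts for each Cst6-high cell, on log axes, with 1 panel per mouse and colour for Krt79. Krt79-positive cells fill the left and upper field and are more numerous, with higher Cst6, in the CerS4epi-/- mice, and Krt79-negative cells form a deep group near the limit of 10 Cst6 counts in all 4 mice.

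Cells just outside the Cst6 limit were like those just inside it. There were 480 cells with 8 or 9 Cst6 counts that met the rest of the rule, with a median depth of 9874 counts and Krt79 in 30.4% of them, and 357 members with 10 or 11 counts, with a median depth of 10114 and Krt79 in 35%. At the Slurp limit, 202 members with 2 counts of Slurp1 and Slurp2 had a median depth of 7504 counts and 53% with Krt79, and 156 excluded cells with 3 counts had 7929 and 47.4%. Some cells that should lack Cst6 also held counts of it. Among cells with at least 3 counts of Cd3 genes, at a median depth of 1541 to 1906 counts, 7.84% and 6.25% in control and 14.8% and 22.1% in CerS4epi-/- mice had at least 1 count of Cst6, and whether free RNA or doublets gave these counts was not tested. Klk10 was found in 0.980% and 1.56% of these Cd3-positive cells in control and in 2.22% and 1.47% in CerS4epi-/- mice, against 20.1% and 13.8% of Krt79-positive members in control and 38.3% and 48.8% in CerS4epi-/- mice. The share of Krt79-positive members with Klk10 thus lay above that of the Cd3-positive cells in all 4 mice. These members were deeper, with a median of 2602 to 4035 counts, and depth was not matched. Krt14-high cells had at least 20 counts of Krt14, fewer than 5 of Krt1 and Krt10 together and fewer than 3 each of Cst6 and Krt79. They also met the Lhx2, Krt75 and Slurp limits of the rule. Klk10 was found in 10.8% ± 0.320 (SD, n = 2) of them in control and 10.4% ± 2.13 (SD, n = 2) in CerS4epi-/- mice. Of 3183 member barcodes, 2 occurred in more than 1 library.

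The share of kept cells that were Cst6-high was larger in CerS4epi-/- mice. It was 7.23% (95% exact binomial interval 6.69 to 7.80) and 6.81% (6.30 to 7.35) in control and 10.9% (10.2 to 11.5) and 12.8% (12.1 to 13.6) in CerS4epi-/- mice, and the groups did not overlap. The means were 7.02% ± 0.294 (SD, n = 2) and 11.9% ± 1.39 (SD, n = 2), a log2 ratio of 0.76, and an exact two-sided permutation test over the mice gave p = 0.333, which is the smallest value that 2 against 2 mice can give. The difference lay in the Krt79-positive members, with 4.12% and 2.78% of kept cells in control and 8.31% and 10.1% in CerS4epi-/- mice (log2 ratio 1.41). Krt79-negative members made up 3.57% ± 0.647 (SD, n = 2) in control and 2.68% ± 0.152 (SD, n = 2) in CerS4epi-/- mice, a log2 ratio of -0.41, so that their share was lower and not higher. Intervals cover counting error only, and a share of dissociated cells depends on all other cells of the sample. Among cells with Krt79 or Cst6 as the denominator, Cst6-high cells made up 49% ± 3.74 (SD, n = 2) in control and 44.6% ± 3.95 (SD, n = 2) in CerS4epi-/- mice, with overlap (exact permutation p = 0.667).

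The shares of neighbouring cells differed between the same mice. Cells that met the Cst6 limit but had 3 or more counts of Slurp1 and Slurp2, genes of secreted Ly6 proteins found in the uppermost keratinocytes, numbered 904 and made up 1.69% ± 0.227 (SD, n = 2) of kept cells in control and 3.63% ± 0.557 (SD, n = 2) in CerS4epi-/- mice. Krt79-positive cells below the Cst6 limit numbered 2307, at 4.75% ± 0.843 (SD, n = 2) and 8.91% ± 0.0528 (SD, n = 2). Krt1/Krt10-high cells had at least 20 counts of these keratins, none of Lhx2 or Krt75, and fewer than 3 each of Cst6, Krt79 and the Slurp genes together. The 9328 such cells made up 32.4% ± 2.25 (SD, n = 2) in control and 21.8% ± 2.08 (SD, n = 2) in CerS4epi-/- mice, which is not the share of all cells with these keratins. The groups did not overlap in any of the 3 (exact permutation p = 0.333 each). Within the cells above the Cst6 limit that lacked Lhx2 and Krt75, the Slurp-positive share was 20.4% and 18.3% in control and 27.0% and 20.1% in CerS4epi-/- mice, with overlap (exact permutation p = 0.667), and its direction turned with the Slurp limit.

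**Figure D2:**
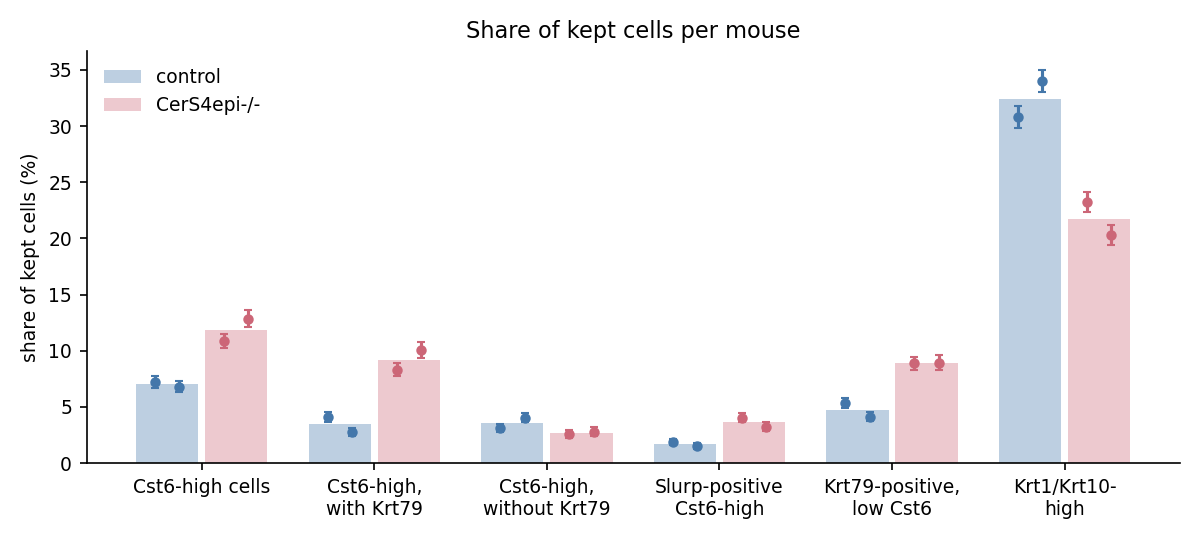
Share of kept cells, in percent, for Cst6-high cells, their Krt79-positive and Krt79-negative members and 3 neighbouring classes. Bars are the means of 2 mice, points are mice and error bars are 95% exact binomial intervals. Krt79-positive members stand at 4.12% and 2.78% in control and at 8.31% and 10.1% in CerS4epi-/- mice, and Krt1/Krt10-high cells make up a smaller share in both CerS4epi-/- mice.

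The genes that set Cst6-high cells apart from all other kept cells of the same mouse were ranked by the lowest of the 4 ratios of CPM, as a description of the cells that the rule took. After Cst6, with a lowest ratio of 6.09, came Sprr1a (5.83), Klk10 (5.82), Defb6 (5.62), which encodes a beta-defensin, Krt17 (5.23) and Krt79 (4.61). They were followed by Teddm3 (4.10), Aqp9 (3.97), an aquaglyceroporin, and Atp6v1c2 (3.80), a subunit of the vacuolar proton pump. The transcription factor gene Foxc1 (3.66) was next. Among the rest of the first 20 were the solute carrier gene Slc46a2 (3.43), the peptide transporter gene Slc15a1 (3.43), the iron exporter gene Slc40a1 (3.36), the phospholipase gene Liph (3.40) and the immunoregulatory surface protein gene Cd200 (3.31). Gdpd1, Endod1, Nfe2l3, Skint2 and Psapl1 completed the list, with lowest ratios from 3.36 down to 3.199. In the Krt79-positive members alone, over the same other cells, the lowest ratio was 20.6 for Sprr1a, 23.1 for Defb6 and 8.45 for Foxc1, but 0.754 for Aqp9 and 1.01 for Liph. Aqp9 stood at 59.8 and 44 in control and 103 and 127 in CerS4epi-/- mice in Krt79-positive and at 428 and 445 in control and 394 and 394 in CerS4epi-/- mice in Krt79-negative members (CPM), so that its place in the list came from the latter, and Liph was likewise higher in the Krt79-negative members of all 4 mice.

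Expression was compared between genotypes on the counts summed over the Cst6-high cells of each mouse with edgeR's quasi-likelihood test and Benjamini-Hochberg adjustment (threshold 0.05). Values per mouse from this comparison are CPM after scaling by trimmed mean of M values and are called normalised CPM. Of 11437 genes tested, 1660 were higher and 1447 lower in CerS4epi-/- mice (27.2% called, 14.5% higher and 12.7% lower), and 68.1% of all genes tested had groups that did not overlap. In the Krt79-positive members 942 of 10100 genes were higher and 770 lower (17.0% called, 9.33% higher and 7.62% lower, and 57.3% with groups that did not overlap), and in the Krt79-negative members 241 of 9670 were higher and 93 lower (3.45% called, 2.49% higher and 0.962% lower). Genes called in the same direction in all members and in the Krt79-positive ones numbered 1296, which was 41.7% of the calls in all members and 75.7% of those in the Krt79-positive ones, and 11 were called in opposite directions. Of 2823 genes called in all members and tested in the Krt79-positive ones, 171 had the other sign there. Leaving out control 2 changed the calls in all members to 1077 higher and 841 lower, and leaving out CerS4epi-/- 2 changed them to 1017 and 721. When members deeper than 2 times the median of their mouse or with at least 2 counts of T cell and Langerhans cell genes were left out, edgeR called 0 genes (2172 at an unadjusted p under 0.05). That setting removed 226 of 613 members of control 1 but 45 of 619 of control 2. Of 123 named genes followed under it, 113 lost the call, and the cause was not tested. The same limits within the Krt79-positive members left 570 genes higher and 590 lower.

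CerS4 transcripts themselves were few. In Cst6-high cells Cers4 had 3 and 7 counts in the control mice, against 26 and 22 in the CerS4epi-/- mice, and 32 of the 48 counts in CerS4epi-/- mice lay in 13 cells with sebaceous genes that are described later. Without these cells the gene did not pass the filter on low counts. Which part of the transcript the deleted exons hold is not given in the sources used here, so that the counts do not check the genotype labels.

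The 5 label markers that the rule did not use were higher in CerS4epi-/- mice in all Cst6-high cells, in Krt79-positive and in Krt79-negative members, and they had been named with earlier results of these data known. Klk10 stood at 512 and 280.4 in control and 2092 and 3738 in CerS4epi-/- mice (normalised CPM), and its log2 fold change was 2.88 ± 0.35 (SE; edgeR adjusted p = 0.00151) in all members and 2.95 in Krt79-positive ones. Klk6 stood at 23.3 and 11.3 in control and 398 and 574 in CerS4epi-/- mice, with a log2 fold change of 4.83 ± 0.31 (SE; edgeR adjusted p = 0.000218). In Krt79-positive members alone its values were 22.1 and 22 in control and 649.7 and 854 in CerS4epi-/- mice, and in no set of members did the genotypes overlap. Sprr1a stood at 3577 and 1513 in control and 8956 and 12396 in CerS4epi-/- mice, a log2 fold change of 2.07 ± 0.37 (SE; edgeR adjusted p = 0.00663), which was 1.05 in Krt79-positive members. Plet1 stood at 153 and 46.9 in control and 645 and 848 in CerS4epi-/- mice, with 2.91 ± 0.45 (SE; edgeR adjusted p = 0.00379), and at 1.88 in Krt79-positive members. Atp12a stood at 38.2 and 12.4 in control and 187 and 188 in CerS4epi-/- mice with a log2 fold change of 2.91 ± 0.37 (SE; edgeR adjusted p = 0.00186), which was 2.86 in Krt79-positive members. Cst6 itself, which chose the cells, stood at 4725 and 3179.7 in control and 14769 and 21208 in CerS4epi-/- mice and is given with no test.

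**Figure D3:**
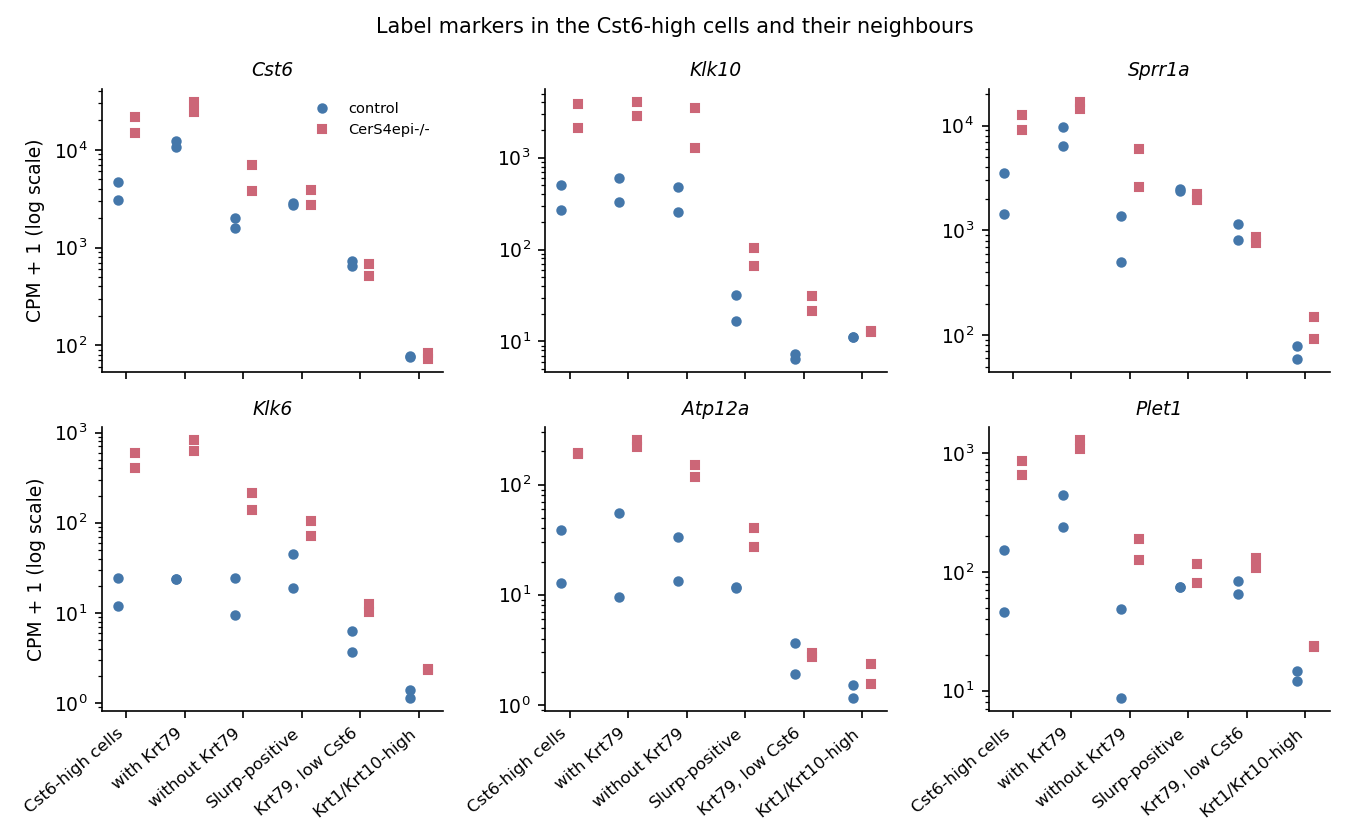
CPM plus 1, on a log axis, of Cst6 and the 5 other label markers in all Cst6-high cells, their Krt79-positive and Krt79-negative members and 3 neighbouring classes, with 1 point per mouse. Within the Krt79-positive members, Klk6 stands at 22.5 and 22.5 in control and 628 and 819 in CerS4epi-/- mice (CPM). Krt1/Krt10-high cells hold fewer than 3 Cst6 counts by their definition, so that their low Cst6 is not a result.

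Krt79-positive members were then divided by their Cst6 counts, since the rule sets only a lower limit and Cst6 itself differed between genotypes. In cells with 100 or more Cst6 counts there were 33 and 20 cells in control and 278 and 328 in CerS4epi-/- mice, against 122 and 100 in control and 145 and 113 in CerS4epi-/- mice at 10 to 19 counts. At 10 to 19 counts of Cst6, Sprr1a stood at 4794 and 2821 in control and 2951 and 3032 in CerS4epi-/- mice (CPM of the summed cells). At 100 or more it stood at 22635 and 21503 in control and 24973 and 26019 in CerS4epi-/- mice, so that its levels differed more between the classes than between the genotypes. At 20 to 49 counts it was lower in both CerS4epi-/- mice, with 7266 and 5468 in control and 4768 and 5226 in CerS4epi-/- mice. Plet1 overlapped between genotypes at 10 to 19 counts, with 225 and 59.9 in control and 203 and 214 in CerS4epi-/- mice, and not at 100 or more, with 1118 and 1259 in control and 1948 and 2009 in CerS4epi-/- mice. Klk10 overlapped between genotypes at 20 to 49 counts, with 61.1 and 127 in control and 91.6 and 159.6 in CerS4epi-/- mice, and at 50 to 99 counts, and did not overlap at 100 or more, with 2896 and 2770.3 in control and 5931 and 7259 in CerS4epi-/- mice. Atp12a overlapped at 10 to 19 counts, with 12.3 and 5.99 in control and 8.46 and 0 in CerS4epi-/- mice, and did not overlap at 100 or more, with 339 and 24 in control and 520.4 and 391 in CerS4epi-/- mice. Klk6 differed from these markers and did not overlap in any class. It stood at 0 and 2.99 in control and 82.9 and 38 in CerS4epi-/- mice at 10 to 19 counts. At 100 or more it stood at 79 and 72 in control and 1175 and 1449 in CerS4epi-/- mice. The values by class are descriptions over small numbers of cells and were not tested.

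Other genes had no overlap between genotypes in any class of Cst6 count. Krt14, the keratin of basal cells, stood at 585 and 446 in control and 2101 and 2196 in CerS4epi-/- mice for 10 to 19 Cst6 counts and at 886 and 744 in control and 2956 and 2833 in CerS4epi-/- mice for 100 or more. Krt6a, a keratin of the companion layer and of stressed epidermis, stood at 0 and 12 in control and 403 and 569.8 in CerS4epi-/- mice in the lowest class and at 45.2 and 0 in control and 2961 and 3329 in CerS4epi-/- mice in the highest. The groups did not overlap in any of the 4 classes for these genes. Cstb, which encodes the intracellular cathepsin inhibitor cystatin B, stood at 1358 and 1075 in control and 3261 and 3699 in CerS4epi-/- mice in the lowest class, again with no overlap, and was higher in each class of more Cst6 counts in all 4 mice. Krt10 stood at 6940.3 and 9891 in control and 3602 and 4534 in CerS4epi-/- mice in the lowest class and was lower in both CerS4epi-/- mice in each of the 4.

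**Figure D4:**
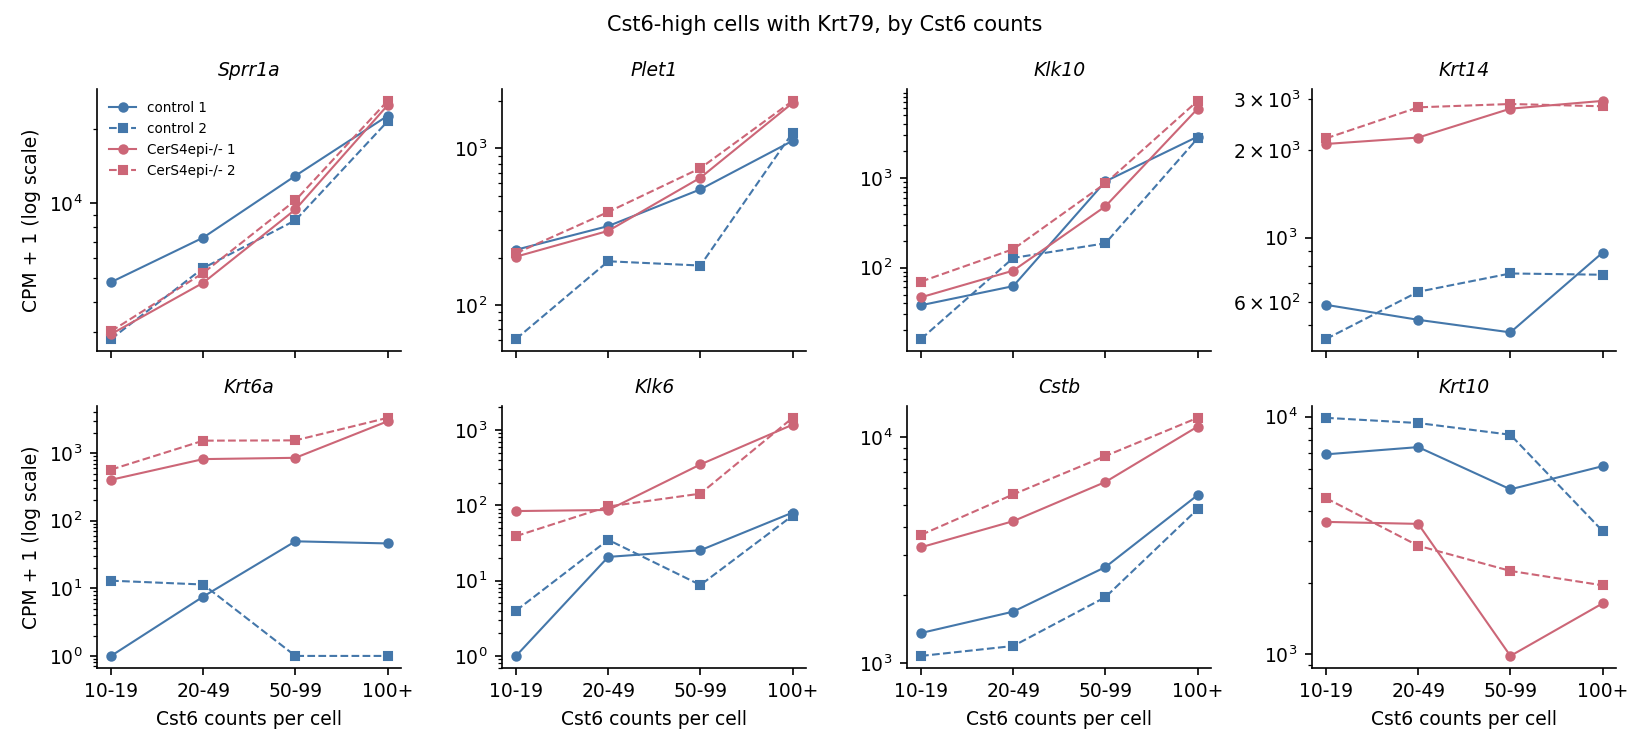
CPM plus 1, on log axes, of 8 genes in Krt79-positive Cst6-high cells grouped by Cst6 counts per cell, with 1 line per mouse. Sprr1a climbs with Cst6 in all 4 mice, Plet1 overlaps between genotypes in the lower 2 classes and Klk10 in the middle 2, whereas Krt14, Krt6a and Cstb are higher and Krt10 is lower in the CerS4epi-/- mice in every class.

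Stress keratins rose in Cst6-high cells. Of 4 tested, 4 were called higher in all members (median log2 fold change 4.35, against 0.01 over all genes) and 3 in the Krt79-positive ones. Of all genes tested, 14.5% were higher in all members and 9.33% in the Krt79-positive ones. The 4 include Krt6b, which passed the filter on low counts through the CerS4epi-/- mice, so that the count and the median rest in part on a gene nearly without control counts. Krt6a stood at 49.5 and 12 in control and 979 and 1644 in CerS4epi-/- mice, with a log2 fold change of 5.43 ± 0.56 (SE; edgeR adjusted p = 0.000911), and in Krt79-positive members at 17.5 and 8.38 in control and 1806 and 2477 in CerS4epi-/- mice, a log2 fold change of 7.30. In Krt79-negative members it missed the threshold, with a log2 fold change of 3.27 and an edgeR adjusted p of 0.0531. Krt6b had 1 and 0 counts in the control mice, against 356 and 390 in the CerS4epi-/- mice. Krt16, the usual partner of keratin 6, stood at 28.1 and 12.4 in control and 204 and 179.97 in CerS4epi-/- mice, with a log2 fold change of 3.26. Krt17 was higher in all members but stood at 14914 and 13803 in control and 14730.2 and 14719.9 in CerS4epi-/- mice in Krt79-positive ones, where its log2 fold change of 0.04 did not pass the test (edgeR adjusted p = 0.899). Krt6a was thus higher in both CerS4epi-/- mice. The Krt17 values summed over Krt79-positive members lay close together. Within the classes of Cst6 count described above they did not. Krt17 stood at 13584 and 13828 in control and 10089.9 and 10970.4 in CerS4epi-/- mice for 10 to 19 counts (CPM of the summed cells) and at 11507 and 12472 in control and 16727 and 16135 in CerS4epi-/- mice for 100 or more. The genotypes did not overlap in any of the 4 classes. Krt17 was lower in the CerS4epi-/- mice in the first 3 and higher in the fourth.

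Of 16 basal keratinocyte genes tested, 15 were called higher in all members (median log2 fold change 0.89), where 14.5% of all genes tested were higher. In Krt79-positive members, which are part of that set, 2 of 15 were called higher (median 0.18), near the 9.33% of all genes tested, and these were Krt14 and Krt5. The difference of the genotype effect between the sets was not tested. Krt14 stood at 219 and 158 in control and 1525 and 1805 in CerS4epi-/- mice in all members, with a log2 fold change of 3.15 ± 0.18 (SE; edgeR adjusted p = 0.00015), and at 569 and 584 in control and 2718 and 2874 in CerS4epi-/- mice in Krt79-positive ones, with 2.28. Krt5, its partner, stood at 466 and 729.9 in control and 924 and 846 in CerS4epi-/- mice in Krt79-positive members, with a log2 fold change of 0.57. Itgb4, a subunit of the basal cell integrin, stood at 28.9 and 51.3 in control and 49.2 and 51.7 in CerS4epi-/- mice there and did not pass the test (edgeR adjusted p = 0.312). At least 3 counts of Krt14 were present in 18.6% and 15.4% of Krt79-positive members in control and in 48.7% and 50.5% in CerS4epi-/- mice, with no overlap between the genotypes.

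Of 11 spinous genes, which mark interfollicular differentiation, 7 were called lower, 0 higher and 4 not called in all members, and the same counts held in the Krt79-positive ones, where the median log2 fold change was -0.97. Of all genes tested, 12.7% were lower in all members and 7.62% in the Krt79-positive ones. Krt10 stood in Krt79-positive members at 6494 and 8673 in control and 2351 and 2582 in CerS4epi-/- mice, a log2 fold change of -1.62 ± 0.15 (SE; edgeR adjusted p = 4.73e-05), and Krt77 at 5528 and 6723 in control and 2255 and 2160.1 in CerS4epi-/- mice, with -1.47. Skint5, which belongs to a family of epidermal immunoglobulin-like proteins, stood in Krt79-positive members at 152 and 164 in control and 42.4 and 47.3 in CerS4epi-/- mice, and Ptgs1, the constitutive cyclooxygenase, at 210.00 and 338 in control and 83.6 and 72.1 in CerS4epi-/- mice. In Krt79-negative members 0 of 11 were called (median log2 fold change 0.15), with a log2 fold change of -0.06 for Krt10. Only 3.45% of all genes tested were called in these members, so that 0 of 11 lay near that share. For Krt10 the difference of the genotype effect between Krt79-positive and Krt79-negative members was not tested.

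Of 29 genes of the cornified envelope tested 12 were lower and 3 higher in all members, and in Krt79-positive ones 10 of 26 were lower and 3 higher (median log2 fold change -0.61). Of all genes tested, 12.7% were lower and 14.5% higher in all members, and 7.62% lower and 9.33% higher in Krt79-positive ones. The numbers of higher genes thus lay near the share over all genes. Krtdap, which encodes a secreted differentiation peptide, stood in Krt79-positive members at 13424 and 13673 in control and 6865 and 6357 in CerS4epi-/- mice, a log2 fold change of -1.04 ± 0.13 (SE; edgeR adjusted p = 0.000269). Cnfn, a cornified envelope protein, stood in Krt79-positive members at 412 and 379 in control and 158 and 106 in CerS4epi-/- mice, with -1.58. The genotypes did not overlap for either gene. Lor was lower in all members, with 11009 and 12524 in control and 5380.1 and 5422 in CerS4epi-/- mice, but its log2 fold change of -0.73 did not pass in the Krt79-positive ones (edgeR adjusted p = 0.127), and in Krt79-negative members it was -0.19. Flg2, a relative of filaggrin, likewise passed in all members and not in the Krt79-positive ones (edgeR adjusted p = 0.0783). The 3 that rose in Krt79-positive members were Rptn, which encodes repetin (2.01), the protease gene Asprv1 (1.72) and the transglutaminase gene Tgm5 (0.83). Small proline-rich genes went the other way, with 4 of 6 higher and 0 lower in all members (median 2.03) and 3 of 5 in Krt79-positive ones. Sprr4 stood at 28.5 and 8.55 in control and 122 and 144 in CerS4epi-/- mice, a log2 fold change of 2.87 (1.83 in Krt79-positive members), Sprr2h at 3.72 and 5.82 in control and 38.2 and 42.4 in CerS4epi-/- mice, and Sprr1b at 23.9 and 21.1 in control and 135 and 43 in CerS4epi-/- mice, where CerS4epi-/- 1 was the higher of the CerS4epi-/- mice. The genes of this family are alike in sequence, so that reads may have been shared between them.

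Of 21 kallikreins, other serine proteases and their inhibitors tested, 8 were higher, 3 lower and 10 not called in all members (median log2 fold change 0.32), and in Krt79-positive ones 9 of 20 were higher and 2 lower. Of all genes tested, 14.5% were higher and 12.7% lower in all members, and 9.33% higher and 7.62% lower in Krt79-positive ones. The numbers of lower genes thus lay near the share over all genes. Slpi, the secretory leukocyte protease inhibitor, stood at 1.24 and 2.18 in control and 31.8 and 26.8 in CerS4epi-/- mice. It is given with no test, since its control values are near 0, but the numbers of higher genes in the list include it. In Krt79-positive members it stood at 0 and 1.05 in control and 42.9 and 26.3 in CerS4epi-/- mice. Klk13 stood at 10.5 and 12.9 in control and 30.9 and 36 in CerS4epi-/- mice and the membrane protease gene Tmprss11e at 8.46 and 2.91 in control and 40.7 and 62.8 in CerS4epi-/- mice, with log2 fold changes of 1.5 and 3.21. These were 3.26 and 3.53 in Krt79-positive members. The members of the list that fell in all Cst6-high cells were Serpina12 (-1.11), an inhibitor of kallikrein 7, Klk5 (-0.62) and Klk8 (-0.82), proteases of the upper epidermis. Among cystatins and lysosomal proteases 8 of 14 were higher, 2 lower and 4 not called (median 1.11), against 14.5% higher and 12.7% lower of all genes tested. In Krt79-positive members 5 of 10 were higher and 1 lower, against 9.33% and 7.62%, so that the numbers of lower genes again lay near the share over all genes. Cstb stood at 1101 and 913 in control and 4628 and 6224 in CerS4epi-/- mice, a log2 fold change of 2.43 ± 0.18 (SE; edgeR adjusted p = 0.000331). Ctsb, which encodes cathepsin B, stood at 532 and 384 in control and 1426 and 1642 in CerS4epi-/- mice, and Ctsd, which encodes cathepsin D, at 190.3 and 162 in control and 384 and 465 in CerS4epi-/- mice, with log2 fold changes of 1.74 and 1.27. These were 1.85 and 1.57 in Krt79-positive members. Ctsl, which encodes the cathepsin L that cystatin M/E inhibits, had a log2 fold change of 3.18 ± 0.16 (SE; edgeR adjusted p = 1.08e-06) in Krt79-positive members, where it stood at 49.5 and 37.7 in control and 370.3 and 435 in CerS4epi-/- mice. Ctsl was higher in both CerS4epi-/- mice than in both control mice in these sums, but the genotypes overlapped in the cells with 10 to 19 counts of Cst6, with 24.7 and 77.9 in control and 52.4 and 38 in CerS4epi-/- mice (CPM).

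Of 22 genes of ion, acid and water transport tested, 10 were higher, 0 lower and 12 not called in all members, where 14.5% of all genes tested were higher. In Krt79-positive ones 10 of 20 were higher and 3 lower (median log2 fold change 0.87), against 9.33% higher and 7.62% lower of all genes tested. Car12, a surface carbonic anhydrase, stood at 7.02 and 4.55 in control and 48.4 and 47.9 in CerS4epi-/- mice, a log2 fold change of 3.07 ± 0.19 (SE; edgeR adjusted p = 0.000218), which was 2.44 in Krt79-positive members. Slc12a2, the sodium, potassium and chloride cotransporter, stood at 116 and 98.8 in control and 189 and 201 in CerS4epi-/- mice. Car2 had 11 and 0 counts in control and 248 and 452 in CerS4epi-/- members. It passed the filter on low counts through the CerS4epi-/- mice and is part of the counts of its list. Gap and tight junction genes went both ways, with 6 of 13 higher and 3 lower in all members and 7 of 12 higher and 2 lower in Krt79-positive ones. Of all genes tested, 14.5% were higher and 12.7% lower in all members, and 9.33% higher and 7.62% lower in Krt79-positive ones. Gjb2, which encodes connexin 26, stood in Krt79-positive members at 1.52 and 3.14 in control and 73.7 and 73 in CerS4epi-/- mice. It passed the filter on low counts through the CerS4epi-/- mice and is given with no test, but it is part of the counts of its list. Gja1, which encodes connexin 43, stood in Krt79-positive members at 17.5 and 31.4 in control and 137 and 109.8 in CerS4epi-/- mice. Cldn23, a claudin of differentiated cells, stood in Krt79-positive members at 418 and 304 in control and 184 and 199 in CerS4epi-/- mice and fell, with -0.93. Of 12 desmosomal genes 4 were higher and 3 lower in all members, against 14.5% and 12.7% of all genes tested. In Krt79-positive ones 3 were higher and 2 lower, against 9.33% and 7.62%. Dsc2 and Dsg3, isoforms of lower layers, had log2 fold changes of 3.07 and 3.10, and Dsc1 and Dsg1a, isoforms of upper layers, of -0.47 and -0.49, while Dsg1b, a close copy of Dsg1a, had 0.80.

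Apoe, which encodes apolipoprotein E, stood at 555 and 222 in control and 6317 and 7113 in CerS4epi-/- mice, a log2 fold change of 4.11 ± 0.40 (SE; edgeR adjusted p = 0.000744), and at 1783 and 915 in control and 11248 and 11414 in CerS4epi-/- mice in Krt79-positive and 95.1 and 72.4 in control and 1104 and 1400.00 in CerS4epi-/- mice in Krt79-negative members. Both kinds of cells had no overlap between genotypes. Of 38 genes of sphingolipids and barrier ceramides, 12 were higher and 15 lower in all members and 13 higher and 7 lower in Krt79-positive ones (median log2 fold change 0.14). Of all genes tested, 14.5% were higher and 12.7% lower in all members, and 9.33% higher and 7.62% lower in Krt79-positive ones. Sgpl1, the lyase that ends sphingolipid breakdown, stood at 116 and 91.2 in control and 334 and 367 in CerS4epi-/- mice, with 1.76 ± 0.13 (SE; edgeR adjusted p = 0.000342) and with 1.82 in Krt79-positive members, and the fatty acid elongase gene Elovl7 at 102 and 71.7 in control and 376 and 447 in CerS4epi-/- mice, with 2.25. The lipoxygenase genes Alox12b and Aloxe3, which oxidise barrier ceramides, fell in Krt79-positive members, with log2 fold changes of -1.65 and -1.66. Of 22 genes of cholesterol synthesis and uptake, 2 were higher and 5 lower in all members, against 14.5% higher and 12.7% lower of all genes tested. Sqle and Srebf2 had log2 fold changes of -0.60 and -0.43, and Dhcr7 changed sign, from -0.47 in all members to 0.41 in Krt79-positive ones.

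Some of the largest rises came from very few cells. Fa2h, the fatty acid 2-hydroxylase, had 1 count in control and 1965 in CerS4epi-/- members, Elovl3 1 and 1072, Ces4a 8 and 1078, and Far2, a fatty acyl reductase of wax synthesis, 12 and 2003. These genes mark the sebaceous gland or are strongly expressed in it. Of the counts in CerS4epi-/- members, 99.5% of Fa2h, 99.3% of Elovl3, 98.9% of Ces4a and 99.6% of Far2 lay in 13 cells with 3 or more counts of Awat1 and Elovl3, of which 6 were in CerS4epi-/- 1, 7 in CerS4epi-/- 2 and 0 in control. All 13 were Krt79-positive and their median depth was 19758 counts. Without these cells none of the 4 genes passed the filter on low counts, and the share of Cst6-high cells and the calls kept their size, with 1554 genes higher and 1395 lower. The sebaceous list, with 9 of 11 genes higher in all members and in the Krt79-positive ones, includes these genes. They were tested only through the 13 cells, all from CerS4epi-/- mice, so that the count is not read as a result about the list. Of all genes tested, 14.5% and 9.33% were higher in these sets. The summed level of the list was 210 and 258 CPM in control and 782 and 859.8 CPM in CerS4epi-/- mice. The 13 cells are part of these sums, and neither the sums nor the count of the list were taken without them. Scd1 was its most abundant gene. Mgst1, a microsomal glutathione transferase that also stood in that list, had 36.4% of its counts of CerS4epi-/- members in the 13 cells, and its log2 fold change was 3.96 with them and 3.35 without them (edgeR adjusted p = 0.000773). Cidea, a lipid droplet protein gene, had 52.7% of its counts there. With 7 counts in control and 421 in CerS4epi-/- members it is given with no test.

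Other large rises did not rest on these 13 cells, which held 0.174% of the Cald1, 0.0743% of the Gsdma2, 0.182% of the Chil1 and 0 of the AA467197 counts of CerS4epi-/- members. Cald1, which encodes the actin-binding protein caldesmon, stood at 2.06 and 2.37 in control and 104 and 172 in CerS4epi-/- mice, a log2 fold change of 5.94 ± 0.35 (SE; edgeR adjusted p = 0.000159). AA467197 stood at 1.86 and 0.910 in control and 82.3 and 105 in CerS4epi-/- mice, and with these control values is given with no test. Gsdma2, a gasdermin, stood at 8.26 and 2.18 in control and 78.8 and 137 in CerS4epi-/- mice, and Chil1, a chitinase-like secreted protein gene, at 18.4 and 2.00 in control and 114 and 146 in CerS4epi-/- mice, with log2 fold changes of 4.40 and 3.72. Gsdma2 and Chil1 were also called in Krt79-positive and in Krt79-negative members. The 12 largest falls were Slc1a3, Ifitm6, Hpgds, Chst2, Il1r2, Lce1m, Sod3, Tmem229a, Tspyl4, Timp3, Tnfrsf21 and Ly6m. Ifitm6, of the interferon-induced transmembrane family, stood at 919 and 1243 in control and 217 and 224 in CerS4epi-/- mice, a log2 fold change of -2.29 ± 0.15 (SE; edgeR adjusted p = 0.000224), and at 132 and 178 in control and 15.1 and 11.7 in CerS4epi-/- mice in Krt79-positive members. Hpgds, the hematopoietic prostaglandin D synthase, stood at 83 and 106 in control and 24.5 and 16.3 in CerS4epi-/- mice, and Slc1a3, a glutamate transporter, at 74.3 and 97.9 in control and 14.5 and 13 in CerS4epi-/- mice. Timp3, an inhibitor of metalloproteases, fell in Krt79-positive members from 464 and 384 to 44.8 and 52.6 normalised CPM (log2 fold change -3.13) and was near 0 change in Krt79-negative ones (0.04). Il1r2, the decoy receptor of interleukin 1, Lce1m, Tnfrsf21 and Ly6m fell in all members and did not pass in the Krt79-positive ones, with edgeR adjusted p-values of 0.052, 0.561, 0.544 and 0.953. Slc1a3, Chst2 and Tmem229a were too low there to be tested.

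Of 18 glutathione and NRF2 genes tested in the Krt79-positive members, 10 were higher, 1 was lower and 7 were not called (median log2 fold change 0.73), against 9 higher and 2 lower of 20 in all members. Of all genes tested, 9.33% were higher and 7.62% lower in the Krt79-positive members, and 14.5% higher and 12.7% lower in all members. Gpx4, which reduces lipid peroxides, stood in Krt79-positive members at 44.9 and 30.4 in control and 179.9 and 161 in CerS4epi-/- mice, a log2 fold change of 2.15 ± 0.17 (SE; edgeR adjusted p = 1.51e-05), and Gclc, the enzyme that limits glutathione synthesis, at 30.4 and 24.1 in control and 46.8 and 50.5 in CerS4epi-/- mice. Gpx2 had 11 and 1 counts in control and 176 and 165 in CerS4epi-/- members. It too passed the filter on low counts through the CerS4epi-/- mice and is part of the counts of its list. Of 11 retinoid genes 6 were higher, 1 was lower and 4 were not called in Krt79-positive members (median 0.92), against 9.33% higher and 7.62% lower of all genes tested. Crabp2, the carrier of retinoic acid, stood in Krt79-positive members at 431 and 375 in control and 851 and 857 in CerS4epi-/- mice, a log2 fold change of 1.08, with no overlap between genotypes. Of the upper follicle list, 11 of 16 genes were higher in all members and 5 of 15 in Krt79-positive ones, with 1 lower, against 14.5% and 9.33% higher of all genes tested. Lrig1, a marker of upper follicle stem cells, stood in Krt79-positive members at 83.7 and 56.5 in control and 176 and 189 in CerS4epi-/- mice, with a log2 fold change of 1.35, while Gata6 stood at 275 and 169.6 in control and 306 and 291 in CerS4epi-/- mice and did not pass the test (edgeR adjusted p = 0.15). Krt79, the gene of the division, is one of those 15 and its own value there is not read.

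Defence and signalling genes made up the remaining lists. Of all genes tested, 14.5% were higher and 12.7% lower in all members and 9.33% higher and 7.62% lower in Krt79-positive ones. Of 13 antimicrobial and wound response genes in Krt79-positive members 8 were higher and 2 lower, and of 14 in all members 11 were higher and 2 lower. Lcn2, a siderophore-binding protein gene, had 0 and 0 counts in control and 83 and 90 in CerS4epi-/- members. It passed the filter on low counts through the CerS4epi-/- mice, so that the count over all members rests in part on a gene without control counts. Wfdc21 stood at 4170.2 and 5656 in control and 1782 and 1789.6 in CerS4epi-/- mice and fell, with -1.46. Of 14 alarmin and cytokine genes 7 were higher and 3 lower in all members and 6 and 3 in Krt79-positive ones. Ccl27a, a skin T cell chemokine, stood at 193 and 101 in control and 487 and 551 in CerS4epi-/- mice, a log2 fold change of 1.83, and Il36g at 143 and 137 in control and 80.04 and 76.1 in CerS4epi-/- mice, with -0.84. Il36g, a cytokine of differentiated keratinocytes, thus went the other way. In the EGF family 3 of 10 were higher in all members, and 3 were higher and 1 lower in Krt79-positive ones. Among those higher in all members was Hbegf, at 115 and 62.2 in control and 245 and 200.02 in CerS4epi-/- mice, with 1.33. Immediate early and heat shock genes, which respond to tissue dissociation, were higher for 6 and lower for 2 of 24 in all members, and in Krt79-positive ones higher for 3 and lower for 6 (median -0.21). Of 13 interferon and antigen presentation genes 3 were higher and 0 lower in all members, and 2 were higher in Krt79-positive ones. Of 25 Notch and differentiation regulators 4 were higher and 2 lower in all members, but 1 was higher and 4 lower in Krt79-positive ones (median -0.13). Of 11 cell cycle genes 1, Mki67, was higher in all members, and 0 of 8 were called in Krt79-positive ones (median -0.54). Gata3, a regulator of keratinocyte differentiation, stood at 348 and 396 in control and 227 and 176 in CerS4epi-/- mice and fell, with -0.89. Of 13 mitochondrial transcripts 7 were higher and 0 lower in all members (median 0.46) and 8 were higher in Krt79-positive ones. With these transcripts left out of the sums 1659 genes were higher and 1443 lower.

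**Figure D5:**
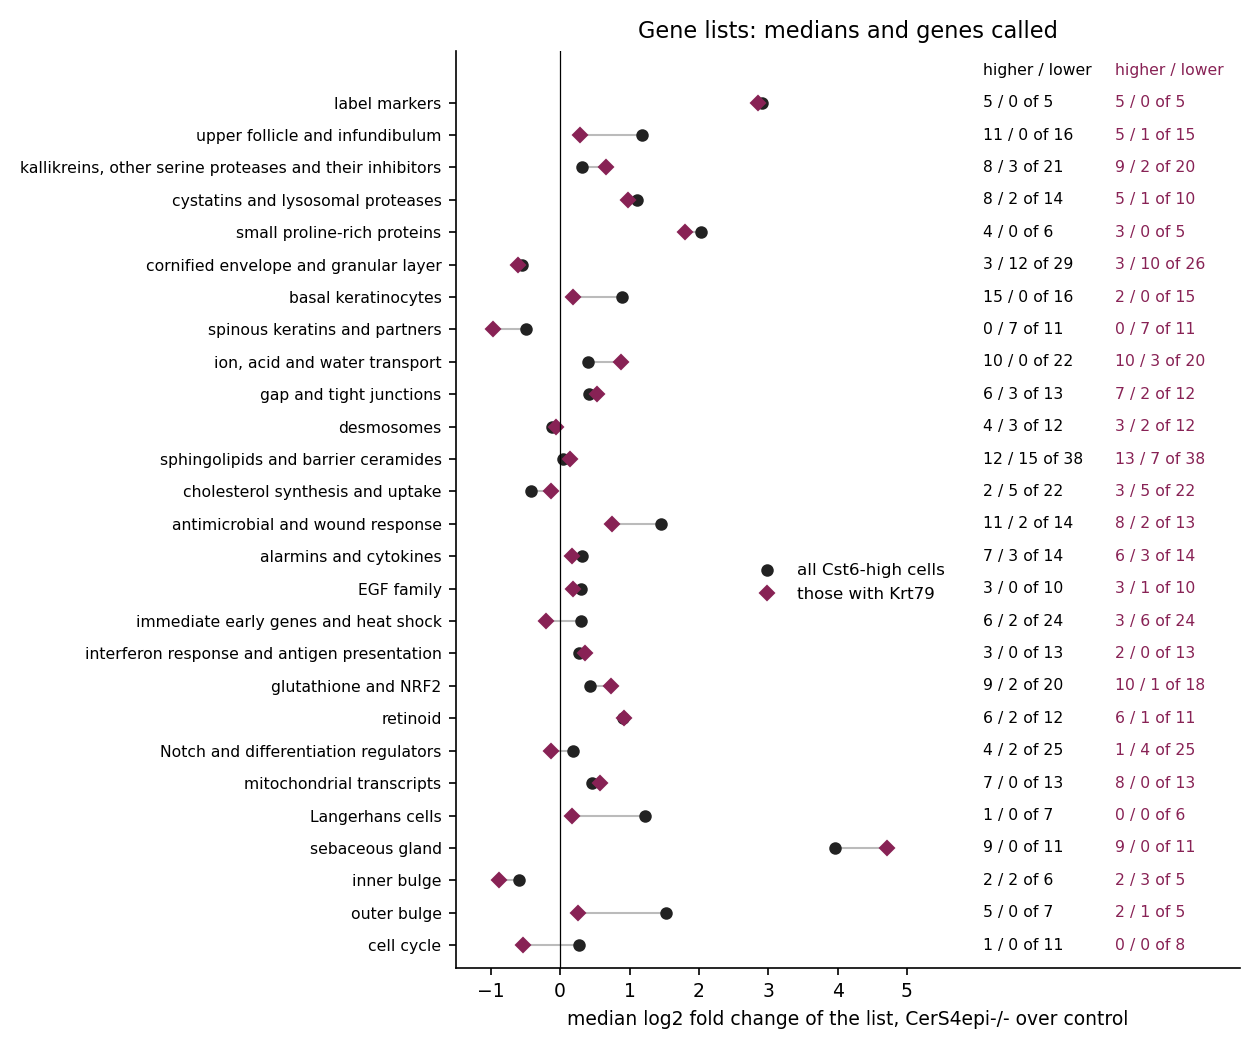
Median log2 fold change, CerS4epi-/- over control, of each gene list with at least 5 genes tested, in all Cst6-high cells (circles) and in the Krt79-positive ones (diamonds), with the genes called higher and lower of those tested at the right. The basal list has medians of 0.89 and 0.18 in these sets, and the spinous list lies at -0.49 and -0.97.

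Markers of other cell types were summed over the Cst6-high cells of each mouse. Of all genes tested, 14.5% were higher and 12.7% lower in these cells, and 9.33% higher and 7.62% lower in the Krt79-positive ones. T cell genes summed to 5.44 and 19.1 CPM in control and 11.8 and 32.7 CPM in CerS4epi-/- mice over 10 genes, led by Cd52, and 1 of 5 tested, Cd52, was called. Langerhans cell genes summed to 18.5 and 77.5 CPM in control and 104 and 169 CPM in CerS4epi-/- mice over 10 genes, led by H2-Ab1, and 1 of 7 was called, Mfge8. In the Krt79-positive members the Langerhans cell sum was 28.8 and 355 CPM in control and 181 and 189.8 CPM in CerS4epi-/- mice, with overlap, and 0 of 6 passed. Fibroblast genes summed to at most 7.19 CPM in any mouse with Lum at 0, and the inner bulge list had Krt75, which the rule excludes, and Calb1 at 0. The inner bulge list summed to 5235 and 5760.1 CPM in control and 4739 and 5108 CPM in CerS4epi-/- mice, led by Sbsn, which differentiated keratinocytes also express. In all kept cells it summed to 2572 and 2808 CPM in control and 2677 and 3099 CPM in CerS4epi-/- mice. The outer bulge list, led by Krt15, which basal keratinocytes also express, summed to 999 and 652 CPM in control and 1511 and 1583 CPM in CerS4epi-/- mice. In all kept cells it was higher in every mouse, with 4901 and 4860.1 CPM in control and 4526 and 4775 CPM in CerS4epi-/- mice. Of 6 inner bulge genes tested 2 were higher and 2 lower, and of 7 outer bulge genes 5 were higher and 0 lower, against 14.5% higher of all genes tested, with Lhx2 at 0 by the rule. In Krt79-positive members 2 of 5 outer bulge genes were higher and 1 lower (median log2 fold change 0.26), and the sums of the genotypes overlapped. The outer bulge genes that rose included Sox9, at 178 and 115 in control and 401 and 439 in CerS4epi-/- mice, and Tcf7l2, at 9.08 and 4.73 in control and 26.5 and 34.9 in CerS4epi-/- mice, both also known from other follicle cells. The melanocyte sum was 2.36 and 0.870 CPM in control and 7.44 and 16.6 CPM in CerS4epi-/- mice, and Mitf alone was tested and called. Hba-a1, a hemoglobin chain, stood at 137 and 169 in control and 59 and 40.5 in CerS4epi-/- mice, and 2 of 3 endothelial and blood genes were lower. That list summed to 181 and 207 CPM in control and 85.9 and 63.3 CPM in CerS4epi-/- mice. In all kept cells it summed to 127 and 134 CPM in control and 173 and 52.7 CPM in CerS4epi-/- mice. The part of these cell types and of doublets in the results was not tested beyond the settings given.

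The genotype effect in Cst6-high cells was set against that in neighbouring cells of the same mice in 1 fit of 12499 genes, with mouse, class and their interaction with genotype. Against the Slurp-positive Cst6-high cells 775 genes differed in effect (6.2% called), with 214 effects larger (1.71%) and 561 smaller (4.49%) in the Cst6-high cells. Against Krt79-positive cells below the Cst6 limit 605 differed (4.84% called), of which 510 were larger (4.08%) and 95 smaller (0.76%), and with the Krt79-positive members in place of all members the number was 240 of 11607 (2.07% called). Against Krt1/Krt10-high cells 1270 differed (10.2% called), of which 795 were larger (6.36%) and 475 smaller (3.8%). Klk6 stood at 17.7 and 43.9 in control and 69.7 and 103 in CerS4epi-/- mice in the Slurp-positive cells (CPM), and its log2 effect in the Cst6-high cells was larger by 3.30 ± 0.43 (SE; edgeR adjusted p = 0.00106). With Krt79-positive members alone the difference was 3.51 ± 0.35 (SE; edgeR adjusted p = 3.74e-05). For Klk6 the differences from the other 2 neighbours did not pass the threshold, with 3.55 ± 1.02 (SE; edgeR adjusted p = 0.0638) against the Krt79-positive cells below the limit and 2.53 ± 1.24 (SE; edgeR adjusted p = 0.232) against the Krt1/Krt10-high cells. With Krt79-positive members alone the first passed, with 3.80 ± 0.76 (SE; edgeR adjusted p = 0.0192). Against the Slurp-positive cells, where Klk10 and Atp12a also rose, the differences of 1.00 ± 0.41 (SE; edgeR adjusted p = 0.192) for Klk10 and 1.29 ± 0.53 (SE; edgeR adjusted p = 0.188) for Atp12a did not pass either. Those of Sprr1a (2.36, edgeR adjusted p = 0.00229) and Plet1 (2.57, edgeR adjusted p = 0.00223) passed, as they did against the other 2 neighbours. For Klk10 the difference passed against Krt1/Krt10-high cells (2.64, edgeR adjusted p = 0.000236) and not against the Krt79-positive cells below the limit (0.76, edgeR adjusted p = 0.642). Krt14 stood at 1316 and 999 in control and 2078 and 1993 in CerS4epi-/- mice in Krt79-positive cells below the limit, and its effect was larger in the Cst6-high cells by 2.38 ± 0.28 (SE; edgeR adjusted p = 0.000257), and in the Krt79-positive members alone by 1.47 ± 0.28 (SE; edgeR adjusted p = 0.0126). The rule holds these neighbours below 10 Cst6 counts while Cst6 in the Cst6-high cells differed between genotypes, so that the effect of the limit on genes whose level goes with Cst6 cannot be told apart from the difference in effect. Ctsb stood at 524 and 398 in control and 553 and 703 in CerS4epi-/- mice in Krt79-positive members with 10 to 19 Cst6 counts and at 1474 and 1511 in control and 3744 and 3285 in CerS4epi-/- mice in those with 100 or more. Cstb and Ctsb differed in effect from all 3 neighbours, with a difference of 1.36 ± 0.18 (SE; edgeR adjusted p = 0.000525) for Cstb and 1.62 ± 0.17 (SE; edgeR adjusted p = 0.000114) for Ctsb against the cells below the limit, and of 1.12 ± 0.22 (SE; edgeR adjusted p = 0.0146) and 1.68 ± 0.16 (SE; edgeR adjusted p = 9.9e-05) with the Krt79-positive members alone. Krt6a, the stress keratin, stood at 20.1 and 2.67 in control and 129.6 and 264 in CerS4epi-/- mice in those cells, and its difference in effect of 1.54 ± 1.61 (SE; edgeR adjusted p = 0.683) did not pass the threshold. Rabgap1l, which encodes a GTPase-activating protein, was among the 5 genes of lowest p against each of the 3 neighbours, Cst6 left aside. It stood at 201 and 189.8 in control and 694 and 779 in CerS4epi-/- mice in the Cst6-high cells, a log2 fold change of 1.91. Leaving out 1 mouse lowered these numbers of genes to between 239 and 462, between 197 and 432 and between 261 and 1157, with the lowest without control 2 for the Slurp-positive cells and without CerS4epi-/- 2 for the other 2.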

How the data were processed

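Dorsal epidermal cells of 4 mice were profiled by the authors with BD Rhapsody. Per the submitters' processing notes, reads were trimmed with fastp 0.23.2 and aligned to GRCm39 with STAR 2.7.10a, whose STARsolo module gave the deposited expected counts per gene and barcode, in which reads shared between genes are divided, so that some values are not whole. Scanpy 1.9.1 and Seurat are named in the same notes.

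Counts were rounded for the rule on cells and after summing. Barcodes with under 1200 counts or over 20% mitochondrial counts were left out. Doublets were not removed and no caller was run. Members were summed per mouse and compared with edgeR 4.0.16 (quasi-likelihood test, trimmed mean of M values, filterByExpr, Benjamini-Hochberg adjustment, threshold 0.05), with R 4.3.3, after the code had been tested on simulated data. DESeq2 1.42.0 was an alternative. Shares were compared by exact two-sided permutation over mice, with exact (Clopper-Pearson) 95% intervals. The interaction fit held 16 sums with mouse and class as terms, of which the mouse term carries the pairing of classes within a mouse.

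The 12 largest rises and falls among called genes with a mean of at least 30 CPM, the 5 genes of lowest p in each interaction, the 20 leading genes at 50 CPM or more and up to 4 genes of lowest p in each list were named, and the other genes were chosen after their values were seen. The members and the gene lists were chosen with earlier results of these data known. The division by Krt79 and the settings that leave out Awat1 or Elovl3 cells or restrict both Krt79 and depth were added after the data had been seen. Promoter windows used the starts of Ensembl canonical transcripts in Gencode vM39. The labels give each mouse its own library, and p-values measure the spread between 2 mice per genotype. Some genes of the lists are not reported here by name.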

Additional observations from a re-analysis of the deposited data

Results flagged for a closer look

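In 15 cases the genotype effect in Cst6-high cells differed from that in a neighbouring class by the interaction test, and these are the genes of lowest p in each contrast (differences are on the log2 scale, edgeR adjusted p under the threshold of 0.05 in each). Against Slurp-positive Cst6-high cells the difference was 2.10 for Chd9, 2.21 for Cpe, 7.18 for Slpi, 1.40 for Rabgap1l and 1.62 for Ctsb. Slpi had effects of opposite sign, with a log2 fold change of 4.06 in the Cst6-high cells and -3.16 in the Slurp-positive ones. Its control values in the Cst6-high cells were 1.24 and 2.18 (normalised CPM), so that the size of its difference is not read. Against Krt79-positive cells below the Cst6 limit the difference was 9.83 for Fa2h, 1.74 for Rabgap1l, 6.09 for Far2, 5.33 for Cidea and 1.86 for Krt17. Of these, Fa2h and Far2 had nearly all of their CerS4epi-/- counts in the 13 cells with Awat1 and Elovl3, and Cidea had 52.7% of them there. In control Cst6-high cells Fa2h stood at 0 and 0.182, Far2 at 1.86 and 0.728 and Cidea at 1.03 and 0.364 (normalised CPM). The differences of Fa2h, Far2 and Cidea thus rest on the CerS4epi-/- mice and are not read further. Krt17 had a log2 fold change of 1.15 in the Cst6-high cells and -0.67 in the cells below the limit, and with Krt79-positive members alone the difference was 0.70 (edgeR adjusted p = 0.0219). Against Krt1/Krt10-high cells it was 1.83 for Rabgap1l, 1.99 for Elovl7, 2.94 for Zyx, 2.15 for Cstb and 2.25 for Capg. With 2 mice per genotype no test for outlying mice was made.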

How the results depend on the processing

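The log2 ratio of the share of Cst6-high cells was 0.41 with a Cst6 limit of 5, 1.52 with a limit of 20, 1.29 after thinning to 1200 counts, 1.41 for Krt79-positive and -0.41 for Krt79-negative members, 1.35 for Krt79-positive members with doublet-like cells left out and -0.13 among cells with Krt79 or Cst6. Leaving out 1 mouse gave 0.63 to 0.87. The Slurp-positive share changed its log2 ratio to -0.24 with a Slurp limit of 1, 1.23 with a limit of 6 and -0.15 after thinning, and to 0.06 to 0.48 without 1 mouse. Genes higher and lower in CerS4epi-/- members numbered 970 and 992 with a Cst6 limit of 20, 851 and 790 after thinning, 1160 and 787 with at most 10% mitochondrial counts, 0 and 0 with doublet-like members left out (2172 at an unadjusted p under 0.05), 942 and 770 in Krt79-positive members, 241 and 93 in Krt79-negative ones, 570 and 590 in Krt79-positive ones with doublet-like cells left out and 915 and 792 with DESeq2. Leaving out 1 mouse gave 1017 to 1554 higher and 721 to 1242 lower. Differences of effect numbered 1193 without a filter and 470 without the mouse term against the Slurp-positive cells (239 to 462 without 1 mouse). Against Krt79-positive cells below the limit they numbered 240 with Krt79-positive members, 1012 without a filter and 353 without the mouse term (197 to 432 without 1 mouse), and against Krt1/Krt10-high cells 842 with DESeq2 and 788 without the mouse term (261 to 1157 without 1 mouse).

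Of 2455 values of 134 named genes under an alternative, 2092 kept direction and side of the threshold, 293 lost and 22 gained the call, and 48 turned, on the log2 scale. In Krt79-negative members these were Timp3 0.039, Cnfn 0.26, Skint5 0.034, Ptgs1 0.19, Krt77 0.071, Dsc1 0.27, Sqle 0.074, Srebf2 0.053, Il36g 0.10, Il36rn 0.13, Sbsn 0.069 and Ccnd1 -0.22. In Krt79-positive ones they were Dhcr7 0.41, Notch1 -0.28, H2-Eb1 -0.26, Sparc -0.23, Top2a -0.64, Mcm5 -0.44 and Ccnd1 -0.23, and with doublet-like cells left out of these Il1r2 0.18, Lce1m 0.42, Lor 0.12, Flg2 0.36, Krt17 -0.17, Dhcr7 0.049, Notch1 -0.27, H2-Ab1 -0.37, H2-Aa -0.16, Sparc -0.35, Pecam1 0.0054 and Ccnd1 -0.22. After thinning Cd7 was -0.090, H2-Ab1 -0.31, H2-Aa -0.43, H2-Eb1 -0.71, Top2a -0.30 and Mcm5 -0.32. With doublet-like members left out H2-Ab1 was -0.16, H2-Aa -0.11 and H2-Eb1 -0.19. Cd3g was 1.03 with a Cst6 limit of 5. Without 1 mouse Cd3g ranged from -1.08 to 0.17, Cd3e from -0.32 to 2.66 and Cd7 from -0.58 to 2.28, each with both signs. With a Cst6 limit of 20 Top2a was -0.47 and Ccnd1 -0.0071, and with at most 10% mitochondrial counts Ccnd1 was -0.13. The cause of these changes was not tested.

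Replicate numbers did not pair the mice, with a correlation of deviations between same-numbered mice of -0.06, and the fit with the replicate block called 1688 genes higher and 1401 lower. With 2 mice per genotype the smallest exact p for a share is 0.333. Shallow cells of 1200 counts limit what is seen of low genes, and intervals cover counting error only.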
